A study of Saccharomyces cerevisiae with 8 samples.

Results

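This report describes 10 genes of Saccharomyces cerevisiae, LSM5, SPO73, MOG1, YCK2, TVP15, TEX1, MHP1, UPA1, CIA2 and ORC2, each of which had a Rap1 peak near its start codon at 16 h that was not listed at 14 d. They were chosen by measured values: the peak list of 16 h repeat 2 holds a peak with an edge within 1 kb of the start codon, and no peak of either 14 d list overlaps it. Of 6002 nuclear protein-coding genes, 785 had a peak of this list within 1 kb, and 82 met the whole rule. The 10 genes are a selection of these 82, and the other 72 were not selected. Because the absence at 14 d and the presence in 16 h repeat 2 were used to choose the genes, both are given as a description, with no test.

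Rap1 was immunoprecipitated with one antibody from formaldehyde cross-linked cultures of strain JDY86 grown in YPD, a rich glucose medium, at 30 degrees for 16 h or 14 d, the latter in stationary phase. According to the study's methods, JDY86 is the MATa background of a histone mutant library. It has mutations in the auxotrophic markers his3, leu2, trp1, ura3 and met15 and in a further marker that is printed there as K2Δ0, MFA1pr-HIS3 at can1, NatMX4 in place of hht1-hhf1, one of its 2 pairs of histone H3 and H4 genes, and a synthetic H3-H4 cassette with URA3 at the other, hht2-hhf2. Both times share this background, and bulk cultures were used, so quiescent and other cells were mixed. There were 2 biological repeats at each time, each with an input library, and the 4 ChIP peak lists were analysed.

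Rap1 binds DNA directly through a pair of Myb-like domains. It is best known for activating ribosomal protein and glycolytic genes, and for coating telomere repeats, where it recruits the Sir silencing proteins. None of the 10 genes encodes a cytoplasmic ribosomal protein or a glycolytic enzyme. Apart from UPA1, for which no function is given here, their products act in varied processes. These are RNA processing, transport, membrane traffic, glucose sensing, the cytoskeleton, meiosis, metal cluster assembly and DNA replication.

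The libraries differed in depth. The background pileup, the number of fragments expected over a position without enrichment, was 0.414 in 16 h repeat 1, 8.87 in 16 h repeat 2, 1.71 in 14 d repeat 1 and 11.7 in 14 d repeat 2. The lists held 84, 480, 95 and 564 nuclear peaks in the same order. Depth here means this background pileup, and numbers of reads were not compared. By this measure the 16 h repeat 1 library was 0.0467 times as deep as 16 h repeat 2, and 14 d repeat 2 was 1.32 times as deep. Each list holds only peaks past the threshold of the peak caller, so a gene without a peak has no value there, which is not a value of 0.

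Of the 480 peaks of 16 h repeat 2, 49 were overlapped by no 14 d peak, which is 10.2% of the list. Of these 49 peaks, 44 had a start codon within 1 kb and 5 had none. The 10 genes have 10 separate peaks among them, and for all 10 the gene named was the one whose start codon lay nearest to the peak. At the threshold of overlap, the closest of the 49 peaks were 505, 678 and 802 bp from a 14 d peak. YGP1, PBI2 and CAR1 were the genes of their nearest start codons. The peak near YGP1, with its summit 1445 bp from that start codon, had none within 1 kb and so did not meet the whole rule. The shortest overlaps left out were 117, 139 and 150 bp, near MET4, RPA43 and RIM4. No peak of 16 h repeat 2 thus lay between an overlap of 117 bp and a gap of 505 bp. For the distance, NPA3 was just inside at 853 bp and HOM2 just outside at 1006 bp, and the largest distance among the 10 genes was 488 bp, at SPO73.

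All 10 peaks were of moderate to low strength. Their fold enrichment, the summit pileup over the local background with 1 added to each, ran from 4.15 to 7.06 with a median of 5.77, and all 10 lay below the list median of 7.76. Ranked from the highest, they held places 258 to 379 of 480, with a median rank of 305.5. Within the 49 peaks without a 14 d overlap, however, they were among the strongest, at places 2 to 19. The 1 peak of these 49 that was stronger than all 10 was at RAP1 itself, with a fold of 11.3, rank 183 and a summit pileup of 160 fragments. The other 39 peaks had a median fold of 3.55.

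**Figure D1:**
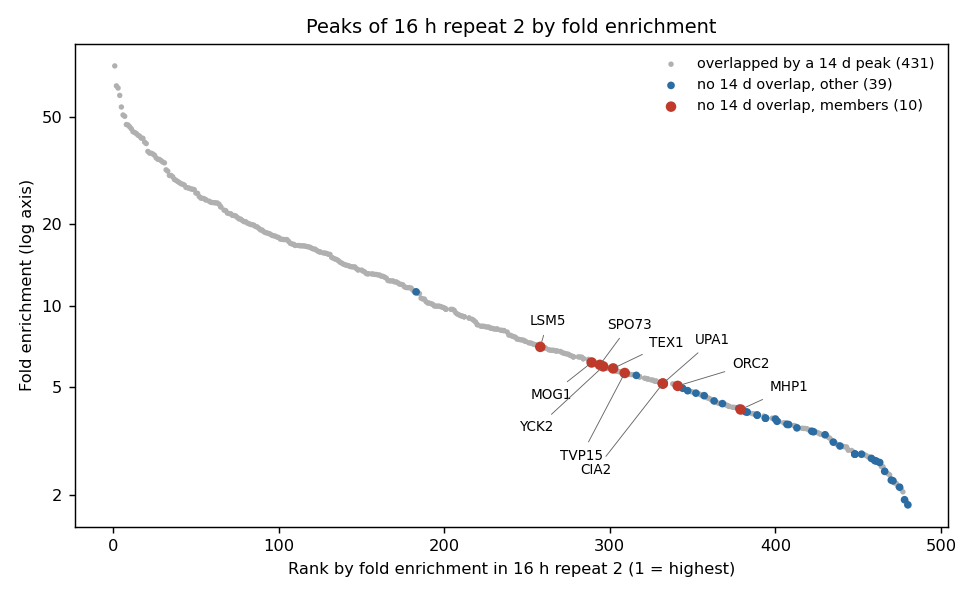
Fold enrichment (log axis) of the 480 peaks of 16 h repeat 2 against their rank, 1 being the highest, with 1 point per peak. The 10 members (red) sit at ranks 258 to 379, in the lower part of the list, and 1 of the other 39 peaks without a 14 d overlap (blue) stands far above them at rank 183.

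Among the genes of RNA metabolism and nuclear transport, LSM5 encodes a subunit of the Lsm rings, which act in mRNA decay and as the core of the U6 small nuclear ribonucleoprotein in splicing. Its peak was the strongest of the 10, at chromosome V 462301 to 462542 (R64), with a fold of 7.06 and rank 258. The summit lay 161 bp before the start codon, over 71 fragments (exact 95% Poisson interval 55.5 to 89.6). The peak also covered 157 bp of YER145C-A, an overlapping gene on the other strand, and the summit lay inside that gene. The divergent neighbour FTR1, an iron permease gene, had its start codon 684 bp from the summit.

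TEX1 encodes a component of the TREX complex, which couples transcription to mRNA export. Its peak lay at chromosome XIV 169721 to 170000, with a fold of 5.88 and rank 302, and the summit was 148 bp before the start codon. It sat in the 769 bp between TEX1 and the divergent RTC4, and overlapped no gene.

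MOG1 encodes a protein that binds the Ran GTPase Gsp1 and takes part in nuclear protein import. Its peak, at chromosome X 572977 to 573215, had a fold of 6.18 and rank 289. This was the one summit that lay after the member's start codon, by 5 bp, and 121 bp of the peak lay over the gene. The divergent OPI3, a phospholipid methyltransferase gene, had its start codon 165 bp from the same summit. NPA3 and HOC1 also had start codons within 1 kb of the peak, which made 4 in all, the most among the 10 peaks.

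ORC2 and CIA2 belong to DNA replication and to iron-sulphur cluster assembly. ORC2 encodes a subunit of the origin recognition complex. Its peak lay at chromosome II 362616 to 362868, with a fold of 5.07 and rank 341, and the summit was 231 bp before the start codon over 49 fragments (exact 95% Poisson interval 36.3 to 64.8). No other gene lay within 1 kb of this summit, and the interval to the next gene, TRM7, was 2272 bp long, the widest of the 10. CIA2 encodes a component of the machinery that inserts iron-sulphur clusters into cytosolic and nuclear proteins. Its peak, at chromosome VIII 353339 to 353605, had a fold of 5.17 and rank 332. The summit lay 159 bp before the CIA2 start codon and 147 bp beyond the end of LSM12, in an interval of 305 bp between genes of the same direction.

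YCK2, TVP15 and MHP1 act at membranes and in the cytoskeleton. YCK2 encodes a casein kinase 1 of the plasma membrane, known for its part in glucose sensing and morphogenesis. Its peak at chromosome XIV 345510 to 345787 had a fold of 5.98 and rank 296. The summit lay 370 bp before the YCK2 start codon, but only 23 bp past the end of GIM3, a prefoldin subunit gene, of which the peak covered 119 bp.

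TVP15 encodes a membrane protein of late Golgi vesicles. The peak was at chromosome IV 654762 to 655019, with a fold of 5.65 and rank 309, and its summit lay 135 bp before the start codon, which the peak reached. The gene before it in the same direction, BMH2, encodes a 14-3-3 protein, and ended 450 bp from the summit.

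MHP1 encodes a microtubule-associated protein. Its peak was the weakest of the 10, at chromosome X 360687 to 360944, with a fold of 4.15 and rank 379. The summit lay inside YJL043W, 425 bp before the MHP1 start codon, and 217 bp of the peak covered that gene. Its pileup of 54 fragments was above those of ORC2, UPA1 and CIA2, which had 49, 50 and 50. Its local background was 12.3 fragments, 1.38 times the genome background, which lowered its fold below theirs.

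SPO73 and UPA1 complete the set. SPO73 encodes a protein required for the prospore membrane in meiosis. Its peak at chromosome V 242212 to 242692 had a fold of 6.06 and rank 294, and at 481 bp it was the widest of the 10, the others being 239 to 280 bp wide. Its summit was as far from SPO73 as from the divergent ACA1, a transcription factor gene, at 839 and 840 bp before their start codons. The peak was given to SPO73 because one edge lay 488 bp from that start codon and the other 711 bp from that of ACA1. UPA1 (YGR283C) had its peak at chromosome VII 1060086 to 1060329, with a fold of 5.17 and rank 332, the same as CIA2. The summit lay 149 bp before the start codon, in the 617 bp between UPA1 and ERV29, a gene of the same direction for a cargo receptor of vesicles.

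**Figure D2:**
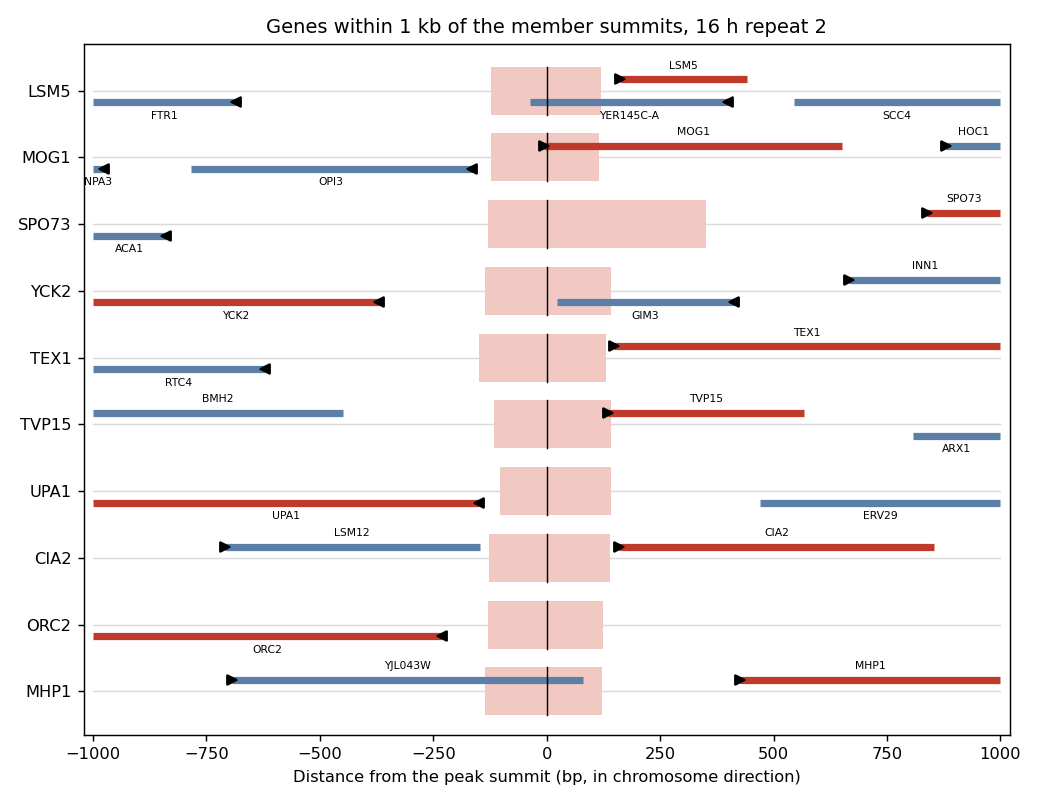
Genes (bars, the member in red and others in blue) within 1 kb of each member summit in 16 h repeat 2, in bp from the summit in chromosome direction. Pink blocks are the peaks, black triangles mark start codons and point the way of transcription, and bars above and below each line are the 2 strands. The blocks of LSM5, MOG1, YCK2, TVP15 and MHP1 meet a gene body, and the ORC2 summit has no other gene within 1 kb.

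In 9 of the 10 genes the summit lay before the start codon, and in 6 of 10 it lay between 100 and 250 bp before it. The median distance between summit and start codon was 160 bp for the 10 peaks. To the nearest start codon of any gene it was 293 bp for the other 39 peaks without a 14 d overlap and 324 bp for the 431 peaks with one. Nearness to a start codon was part of the rule for the 10 genes, so this difference is a description. The summit lay in no gene for 7 of the 10 and inside a protein-coding gene for 3 (30%), at LSM5, MOG1 and MHP1. Of all 480 peaks, 56 (11.7%) had the summit inside such a gene. Among the 104 peaks of the same fold range with a 14 d overlap, 12 (11.5%) did. These shares carry no test. The gene before the member ran the other way (a divergent pair) in 4, LSM5, SPO73, MOG1 and TEX1, and the same way in 6. The side of the start codon and the direction of the gene before are not given here for the other peaks. Those counts thus have no share over the list beside them and show no trait of the 10 peaks.

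No tRNA gene, and no other RNA gene of the annotation, lay within 1 kb of any of the 10 summits. The nearest of the 275 nuclear tRNA genes was 4873 bp from the CIA2 peak, 5160 bp from MHP1, 6915 bp from LSM5, 7594 bp from SPO73 and 9538 bp from TVP15. It was 11718 bp away at ORC2 and 29082 bp at YCK2. At MOG1 it was SUP4, 29933 bp away, and at UPA1 and TEX1 the distances were 55799 and 64844 bp. A tRNA gene within 1 kb was likewise absent from the other 39 peaks without a 14 d overlap, and 13 of the 431 peaks with one (3.02%) had it. Among the 122 peaks of 16 h repeat 2 in the fold range of the 10 genes, 0 had a tRNA gene within 1 kb, the 10 genes included.

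The summit pileups ran from 49 fragments at ORC2 to 71 at LSM5, with a median of 57, and the exact 95% Poisson intervals of all 10 overlapped that of LSM5. These intervals cover counting error only. The local background was within 1% of the genome background of 8.87 fragments at 6 of the 10. As log2 of the pileup over the genome background, the 10 peaks had a median of 2.68 and were lowest at ORC2, at 2.47.

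**Figure D3:**
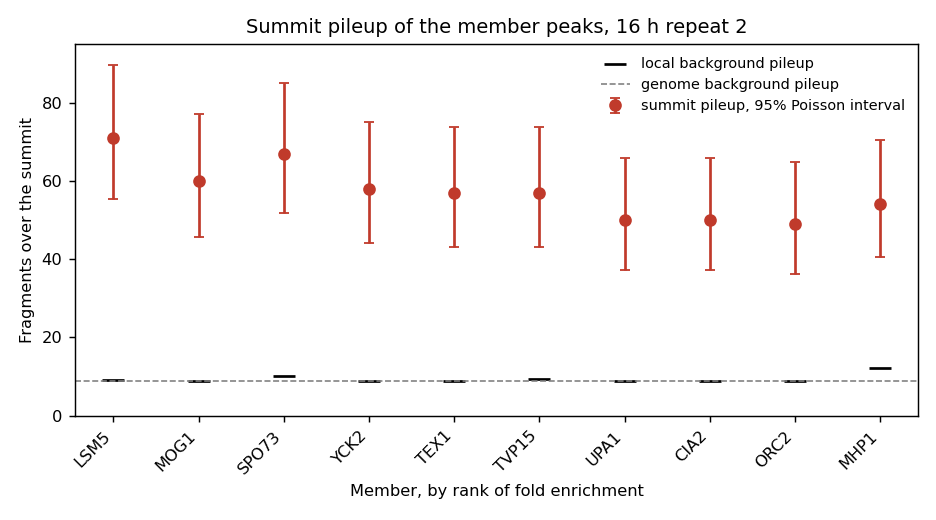
Fragments over the summit of each member peak in 16 h repeat 2 (red points, with exact 95% Poisson intervals), the local background pileup (black bars) and the genome background of 8.87 fragments (dashed line). All 10 intervals overlap that of LSM5, the highest at 71, and stand well above the background.

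The second 16 h library was not used by the rule. None of the 10 genes had a peak within 1 kb of the 16 h repeat 2 peak in 16 h repeat 1, and the nearest peaks there were 27246 bp (SPO73) to 200428 bp (MHP1) away. All 10 peaks therefore rest on 1 library. The same held for the other 39 peaks without a 14 d overlap, 0 of which overlapped a 16 h repeat 1 peak, against 83 of the 431 with a 14 d overlap (19.3%). At this strength the shallow list holds few peaks of any kind: of the 122 peaks in the fold range of the 10 genes, 3 (2.46%) overlapped one. With the same enrichment over the genome background, the 10 summits would carry 2.29 to 3.32 fragments at the depth of 16 h repeat 1, where the lowest listed pileup was 5. The scaled values assume the same enrichment in both 16 h libraries, which was not tested, and start from the peaks that the rule used. Whether the sites were bound in that culture cannot be told from this list.

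At 14 d, 14 d repeat 2 was the nearer list for all 10 genes, and its nearest peaks were 2305 to 28401 bp away, with a median of 18395.5 bp. It holds 564 nuclear peaks against 95 in 14 d repeat 1, and a longer list lies nearer to most positions. The count is therefore not shown to be particular to these genes. In 14 d repeat 1 the nearest peaks were 10303 to 180725 bp away. The closest was at MHP1, where a 14 d repeat 2 peak lay 2305 bp off, with a fold of 3.85, rank 436 of 564 and GYP6 as the gene with the nearest start codon, 1467 bp from its summit. At YCK2 it was 4097 bp off, with a fold of 5.16 and rank 369, and its summit was 307 bp before PGA2. At UPA1 it was 7470 bp off, with a fold of 3.79 and rank 440, and its summit was 360 bp before YOR1, a drug transporter gene. These 3 were the only genes of the 10 with a 14 d peak within 10 kb.

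ORC2 followed at 10187 bp, with a peak before TIP1, a cell wall protein gene, that was listed at a fold of 7.91 in 14 d repeat 2 and 4.14 in 14 d repeat 1. This peak also overlapped a 16 h repeat 2 peak with a fold of 6.07. TVP15 was 18188 bp from a peak near GIS1, and SPO73 was 18603 bp from a peak near YER053C-A. The nearest peaks of CIA2, MOG1, TEX1 and LSM5 were over 25 kb away, at 25791 bp (near YHR139C-A), 27180 bp (near PTK2, a kinase gene), 27938 bp (near ZWF1, the glucose-6-phosphate dehydrogenase gene) and 28401 bp (near YER158C). For 6 of the 10 genes this nearest 14 d repeat 2 peak overlapped a 16 h repeat 2 peak. For MHP1, YCK2, UPA1 and CIA2 it overlapped none. Whether these 14 d peaks, 2305 to 25791 bp away, have any relation to the member peaks was not tested. The share of all 14 d repeat 2 peaks that overlap no 16 h repeat 2 peak is not given here, so these counts have no background.

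**Figure D4:**
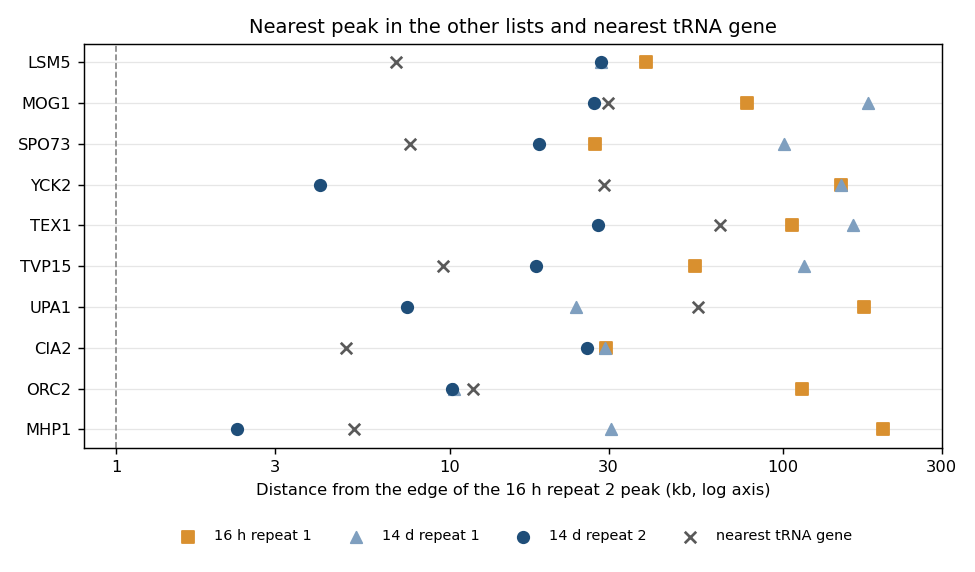
Distance in kb (log axis) from the edge of each member peak of 16 h repeat 2 to the nearest peak of the other 3 lists and to the nearest tRNA gene (crosses), with a dashed line at 1 kb. Every marker lies right of 1 kb, the closest being the 14 d repeat 2 peak at MHP1. At LSM5 and ORC2 the markers of the 14 d repeats lie almost on each other.

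How often a peak of this strength was missing at 14 d was read from the 16 h repeat 2 list itself. Of the 257 peaks with a fold above that of LSM5, 1 was overlapped by no 14 d peak (0.389%), the one at RAP1. In the fold range of the 10 genes the number was 18 of 122 (14.8%), the 10 genes included, and below that range it was 30 of 101 (29.7%). The share without a 14 d peak was thus higher in the weaker classes of the list, and the fold range was set by the 10 genes, so these shares carry no test. The other 104 peaks of the same fold range all overlapped a peak of 14 d repeat 2. Their median fold was 5.56 at 16 h and 6.68 at 14 d, with a range of 2.43 to 46.4 at 14 d, and 36 of them (34.6%) were lower at 14 d. Their median log2 enrichment over the genome background was 2.83 at 16 h and 3.02 at 14 d.

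**Figure D5:**
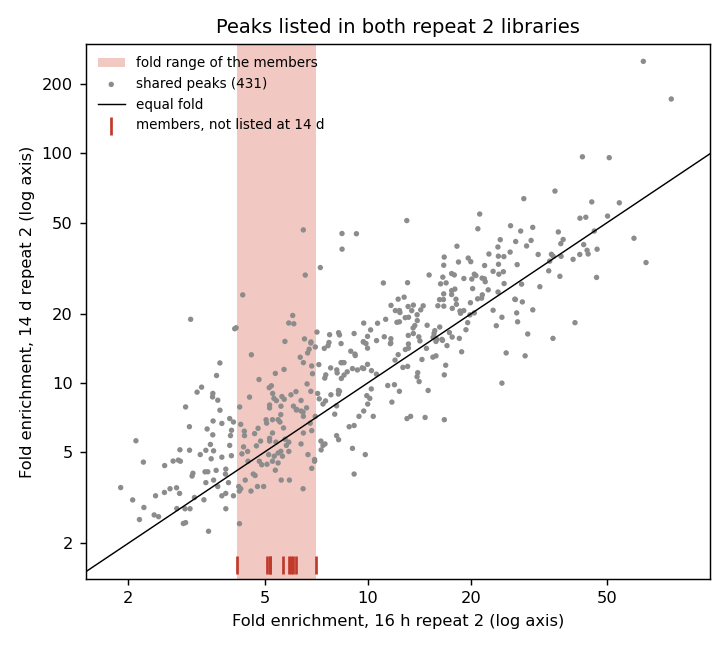
Fold enrichment (log axes) of the 431 peaks of 16 h repeat 2 that overlap a peak of 14 d repeat 2, 16 h across and 14 d up, with a line of equal fold. The pink band is the fold range of the 10 members, 4.15 to 7.06, and the red ticks at its foot are their 16 h folds, which have no 14 d value. The 104 shared peaks in the band have 14 d folds from 2.43 to 46.4.

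In 14 d repeat 2, the lowest listed pileup at the genome background was 29 fragments and the lowest fold there was 2.36. At the same enrichment as in 16 h repeat 2, the 10 summits would carry 64.8 to 93.9 fragments at that depth, so all 10 would exceed 29. In 14 d repeat 1 they would carry 9.43 to 13.7 fragments, and 7 of 10 would reach the lowest listed pileup at the genome background, which was 10. Of the 122 peaks of 16 h repeat 2 in the fold range of the 10 genes, however, only 7 overlapped a peak of 14 d repeat 1, so peaks of this strength were seldom listed there. These values assume that enrichment does not change with the library, which was not tested. The fold of single peaks did differ between the repeat 2 libraries. The 104 shared peaks of this fold range had 14 d folds of 2.43 to 46.4, and 36 of them (34.6%) were lower at 14 d. The scaled values also start from the 16 h repeat 2 peaks that the rule used. The peak names of 14 d repeat 2 call it a merge, and whether reads of several runs or cultures were pooled in it is not given in the sources used here. Its depth and its standing as 1 repeat are uncertain to that extent. The signal of the 14 d libraries at the 10 genes was not analysed here, since the lists give no value below the threshold. With 1 library at 16 h that shows the peaks and 1 of like depth at 14 d that does not, time and library cannot be told apart.

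Partners of 8 of the 10 gene products, all but MHP1 and UPA1, were looked up in the same way, in lists of 38 genes, of which 37 matched the annotation by symbol. These were other subunits of the Lsm rings (7), the origin recognition complex (5), the cytosolic iron-sulphur machinery (7), casein kinases 1 (3), Golgi TVP proteins (3), mRNA export factors (6), the Ran cycle (4) and prospore membrane proteins (2). A peak within 1 kb of the start codon was listed for 0 of the 37 in 16 h repeat 1 and for 0 in 16 h repeat 2, where 1.88% and 13.1% of all 6002 genes had one. At 14 d the numbers were 0 of 37 in repeat 1 and 1 in repeat 2, where 2.73% and 15.4% of all genes had one. The 1 gene was LSM7, a subunit of the same rings as LSM5. The peak, at chromosome XIV 349884 to 350213 with its summit 877 bp from the LSM7 start codon, is the one nearest to YCK2. The start codon nearest to this summit was that of PGA2, at 307 bp.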

How the data were processed

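The authors trimmed the reads with Trim Galore, mapped them with Bowtie2 to R64, release 64 of the yeast genome, and called peaks with MACS2 against a matched input (versions and settings not given in the sources used here). The 4 deposited lists hold, per peak, its position, a fold (a ratio), a −log10 p, a −log10 q and an integer score made from the latter. The names of the 14 d repeat 2 peaks call it a merge. Positions are counted from 1.

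From these lists, pileup and background were solved per peak from fold and −log10 p as a Poisson tail (relative tolerance 0.0001, met by 100% of peaks), assuming an unscaled ChIP pileup. The lowest background in a list is its genome background. Overlap was at least 1 bp. Mitochondrial peaks were left out. Start codons came from RefSeq positions and the strand in systematic names. Python 3.11.15, numpy 2.4.6, pandas 2.3.3 and scipy 1.17.1 were used, and functions were tested on simulated data.

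The genes named were the 10 members, genes overlapping a peak or within 1 kb of its summit, the nearest tRNA genes, genes at the nearest 14 d peaks, partners with a peak and peaks at the thresholds. RAP1 and the genes at the 1 kb limit were named after their values were seen. The members and lists were chosen with earlier results of these data known, and the solved pileups, the fold range and the scaled pileups were chosen after seeing the data. No test was run. Input libraries were not analysed here.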

Additional observations from a re-analysis of the deposited data

How the results depend on the processing

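The 10 members kept a 16 h repeat 2 peak without a 14 d overlap when an overlap of 50% of the shorter peak was required, when a gap of up to 500 bp counted as shared, with −log10 q limited to 5 or more in 16 h repeat 2 or in every list, and without either 14 d list. These settings could not have changed the outcome for the members. A stricter overlap or fewer 14 d peaks can only remove overlaps. The smallest gap from a member to a 14 d peak was 2305 bp, and the lowest −log10 q of the members was 16.3. With the summit within 500 bp of the start codon 9 of 10 remained, all but SPO73. The number of 16 h repeat 2 peaks with no 14 d overlap stayed at 49 under both overlap settings, was 36 and 37 with these respective limits on −log10 q, and ranged from 49 without 14 d replicate 1 to 389 without 14 d replicate 2, since the list left was the short one. The absence at 14 d thus rests on the 14 d repeat 2 library. The median rank of the members moved from 305.5 by fold to 325 by −log10 q and 339 by log2 enrichment.

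No paired analysis was possible because the members have a value in 1 list alone, and the results are counts and ranks that come from no test. The motif search and its alternative were not run, since no sequence was used here. Sites below the thresholds of the peak caller have no value. Of the 122 peaks of this strength in 16 h repeat 2, 3 overlapped a peak of 16 h repeat 1 and 7 a peak of 14 d repeat 1.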
